A study of Homo sapiens with 6 samples.

Results

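The genes described are 10 members of the Notch pathway, namely the receptors NOTCH1, NOTCH2 and NOTCH3, the ligands JAG1, JAG2 and DLL1, the transcriptional repressors HES1, HES4 and HEY1, and the feedback inhibitor NRARP. They were taken by name from the 58174 genes of the files, and the value of a gene is the sum of the FPKM of its transcripts, that is, of mapped fragments scaled to transcript length and sequencing depth. All 10 were found and all 10 entered the test. SiHa, an established line from a cervical squamous cell carcinoma, received either the plasmid GV230-BRCA1 (the OV-BRCA1 group, n = 3) or GV230 without the insert (the NC group, n = 3). Plasmids were delivered with a Lipofectamine reagent in both groups, and mRNA was sequenced after 48 h. All samples are of this single line, and the study's methods call the samples of a group biological replicates. Neither the labels nor those methods say whether they were separate cultures, so the p-values measure only the spread between these samples, which may be technical in part. Sequencing depth in M fragments, estimated from the value of 1 fragment, was 15.61, 16.09 and 13.64 for OV-BRCA1 (samples 1 to 3) and 15.58, 18.15 and 19.12 for NC (samples 1 to 3).

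Notch signaling passes between touching cells. A Jagged or Delta-like ligand on one cell binds a Notch receptor on its neighbor, a metalloprotease and then gamma-secretase cut the receptor, and the freed intracellular domain enters the nucleus, where it joins the DNA-binding protein RBPJ and a Mastermind coactivator. RBPJ without this domain recruits corepressors, and with it activates genes such as those of the HES and HEY repressors. In stratified squamous epithelium the pathway is known for its part in moving cells out of the basal layer into differentiation.

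BRCA1, the transfected gene, had an FPKM of 35.7, 40.8 and 34.9 in the OV-BRCA1 samples and of 20.1, 14.9 and 21.7 in the NC samples, so the summed values of the groups did not overlap and differed in the direction of their labels. Most of the difference was listed under transcripts ENST00000468300 (3273 bases, means of 18.1 and 7.76 FPKM) and ENST00000352993 (3668 bases, 7.97 and 1.29 FPKM). In the NC samples ENST00000352993 was listed at 0, 0 and 3.86 FPKM, so its NC mean comes from NC sample 3 alone. The longer ENST00000357654 (7207 bases) overlapped between the groups with a lower mean in the OV-BRCA1 group, at 0.306, 0.946 and 0.862 FPKM in the OV-BRCA1 samples and 1.83, 3.70 and 0 in the NC samples. The sum passed with a log2 fold change of 0.95 (limma adjusted p = 0.00373), so BRCA1 was not a DEG as defined below. Over 14 alternative settings its log2 fold change was 0.80 to 1.13. The highest came from the most abundant transcript alone, tested in place of the sum (limma adjusted p = 0.00256). The epithelial keratins KRT7, KRT8 and KRT18 were abundant, with mean FPKM values of 1617, 373 and 252 in OV-BRCA1 cells and 1701, 326 and 192 in NC cells. Of the 5 squamous or basal markers, KRT17 (1033 and 1434 FPKM) and SFN (125 and 134 FPKM) were abundant. The defining basal genes KRT5, KRT14 and TP63 were not, and none of them exceeded 0.675 FPKM in any sample. KRT14 (0.615 and 0.208 FPKM) and TP63 (0.262 and 0.0289 FPKM) were below the filter, with all OV-BRCA1 samples above all NC samples. The epithelial markers CDH1 (0.726 and 0.435 FPKM) and KRT19 (0.517 and 0.529 FPKM) were also low. The cells thus expressed epithelial keratins at a high level, and the other epithelial marker, EPCAM, is given below.

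JAG1 and DLL1, both ligands, HES4, a target, and NRARP, the feedback inhibitor, were higher in the OV-BRCA1 group in 3 of 3 samples, with ratios of mean FPKM of 2.30, 2.81, 1.65 and 1.62. NOTCH1, NOTCH2, NOTCH3, JAG2, HES1 and HEY1 did not pass. A gene passed with an adjusted p-value below 0.05 from limma on log2(FPKM + 1) with Benjamini-Hochberg adjustment over 16321 genes, those that reached 0.5 FPKM in 3 or more samples. The added 1 makes fold changes of weakly expressed genes look smaller than they are. Thus 4 of 10 members were higher, where 16.4% of all genes tested were higher, and 0 of 10 were lower, where 18.9% of all genes tested were lower. At an unadjusted p-value below 0.05 in limma the counts were also 4 and 0, where 21% of all genes tested were higher and 25% lower. DLL1 reached the filter only through the OV-BRCA1 samples and so could enter the test only by being higher there. Without it the count is 3 of 9, and nothing particular to the list is read from either count.

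DEGs were genes that passed and had an absolute log2 fold change above 1. No member was a DEG (0 of 10, and 0 also at an unadjusted p-value in limma), where 2.89% of all genes tested were upregulated and 1.1% downregulated DEGs (2.97% and 1.15% at an unadjusted p-value). With a pseudocount of 0.1 in place of 1, JAG1 (1.20) and DLL1 (1.14) were above that log2 fold change and passed. The groups did not overlap in 6 of 10 members, against 50.8% of all genes tested. The median log2 fold change was 0.19 over the members and -0.04 over all genes tested. Both the count without overlap and the median include DLL1, which could enter only by being higher in the OV-BRCA1 group. Nothing particular to the list is read from them. In a bulk sample, fewer cells that express a gene and less of its RNA per cell cannot be told apart. With 3 samples against 3, the smallest p-value of an exact two-sided permutation test is 0.1.

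**Figure D1:**
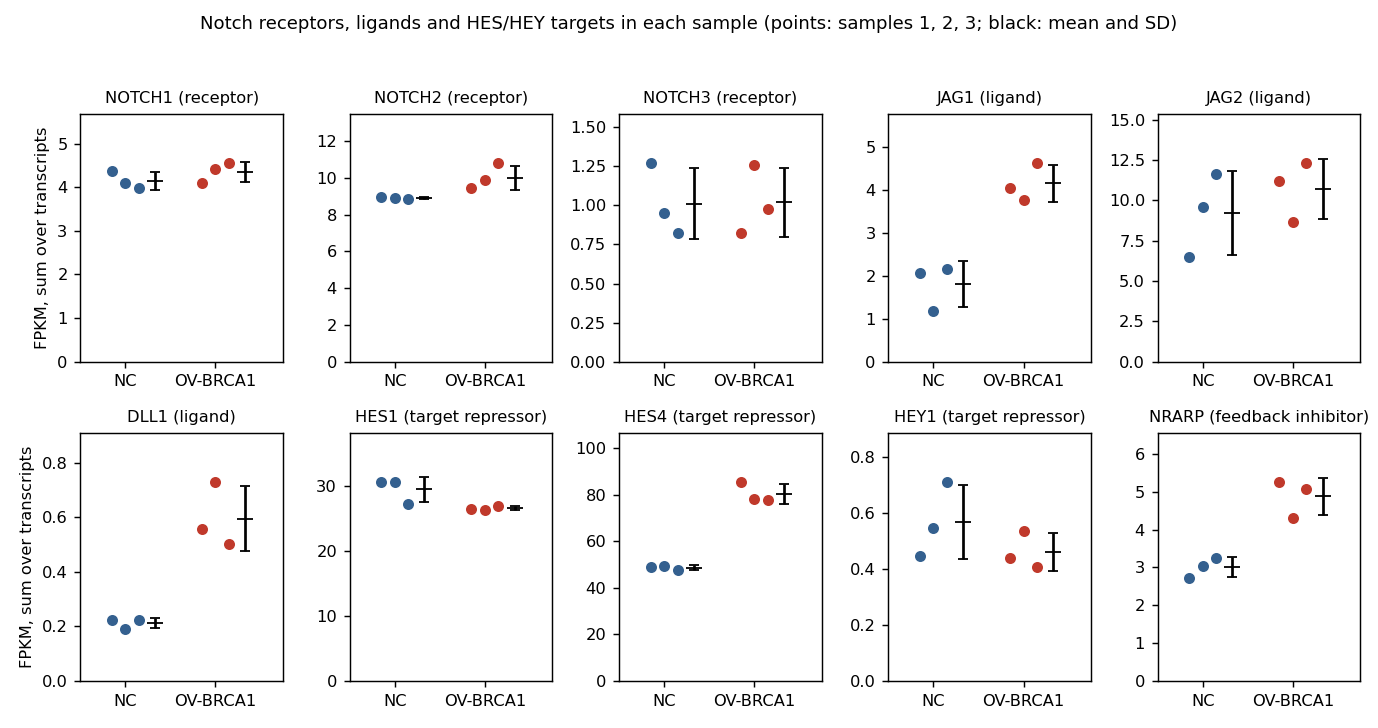
FPKM of each member (y axis, from 0, a scale of its own in each panel) in the 3 NC samples (blue) and the 3 OV-BRCA1 samples (red), with the mean and SD of each group in black. JAG1, DLL1, HES4 and NRARP have every red point above every blue point, while NOTCH1, NOTCH3, JAG2 and HEY1 overlap.

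Among the receptors, NOTCH2 was the most abundant per length, followed by NOTCH1 and NOTCH3. NOTCH2 (ENSG00000134250, chr1:119911553-120069626, GRCh38) had an FPKM of 9.46, 9.88 and 10.8 in the OV-BRCA1 samples and of 8.97, 8.90 and 8.85 in the NC samples. All OV-BRCA1 values lay above all NC values, with the NC samples almost equal and the OV-BRCA1 samples more spread. The log2 fold change was 0.15 (SE 0.07, 95% interval -0.01 to 0.32), and it did not pass (limma adjusted p = 0.133). Its full-length transcript ENST00000256646, with 86.2% of the summed FPKM, stood at 8.66 ± 0.322 and 7.66 ± 0.0714 (SD, n = 3 each). NOTCH2 shares near-identical sequence with its partial copies, the NOTCH2NL genes, so its value is uncertain where fragments fit both. NOTCH2NLA, examined after its values were seen, rose from 5.46 ± 0.541 to 7.75 ± 0.278 FPKM (SD, n = 3), a log2 fold change of 0.44 (limma adjusted p = 0.00963).

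NOTCH1 (ENSG00000148400, chr9:136494433-136545786, GRCh38) had an FPKM of 4.10, 4.42 and 4.55 in the OV-BRCA1 samples and of 4.38, 4.09 and 3.98 in the NC samples. The groups overlapped, and the 95% interval of the log2 fold change ran from -0.13 to 0.24 (limma adjusted p = 0.617). NOTCH3 (ENSG00000074181, chr19:15159038-15200981, GRCh38) was at 0.821, 1.26 and 0.980 FPKM in the OV-BRCA1 samples and at 1.27, 0.952 and 0.824 in the NC samples. Each group held both a high and a low sample, and the log2 fold change was 0.00 (95% interval -0.30 to 0.31, limma adjusted p = 0.983). Its full-length transcript ENST00000263388 was steadier, at 0.571 ± 0.0191 FPKM in OV-BRCA1 cells and 0.618 ± 0.0257 in NC cells (SD, n = 3). The difference of NOTCH3 had no fixed sign, and was -0.09 with protein-coding transcripts only, an alternative chosen after seeing the data, and -0.02 with scaling to nuclear protein-coding genes. Summed over the 3 receptors, FPKM was 15.4 ± 0.961 in OV-BRCA1 cells and 14.1 ± 0.496 in NC cells (SD, n = 3).

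JAG1 had the largest log2 fold change of the 10 members on log2(FPKM + 1), whereas DLL1 had the largest ratio of mean FPKM (2.81 against 2.30). JAG1 (ENSG00000101384, chr20:10637684-10673999, GRCh38) encodes Jagged1, a membrane ligand of the Notch receptors. Its FPKM was 4.06, 3.78 and 4.63 in the OV-BRCA1 samples and 2.08, 1.19 and 2.16 in the NC samples. The lowest OV-BRCA1 sample lay well above the highest NC sample, and NC sample 2 was lower than the other NC samples. The means were 4.16 ± 0.435 and 1.81 ± 0.539 (SD, n = 3 each), and the log2 fold change was 0.89 (SE 0.16, 95% interval 0.50 to 1.29, limma adjusted p = 0.0077). The log2 fold change was between 0.72 and 1.20 over 14 alternative settings and passed in all 14.

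Of the 9 JAG1 transcripts, the full-length coding transcript ENST00000254958 held 74.4% of the summed FPKM. It was at 3.27, 3.25 and 3.22 FPKM in the OV-BRCA1 samples and at 1.34, 1.07 and 1.16 in the NC samples. Samples of a group were closer to each other in this transcript than in the sum over all transcripts, and its ratio of means was 2.73. The low sum of NC sample 2 went with low values of short retained-intron transcripts, whereas its full-length value was near those of the other NC samples. JAG1 overlaps an antisense gene, AL050403.2, which was listed at 0 in every sample.

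DLL1 (ENSG00000198719, chr6:170282206-170306565, GRCh38), a Delta-like ligand, was low in all samples. Its FPKM was 0.556, 0.729 and 0.502 in the OV-BRCA1 samples and 0.223, 0.191 and 0.222 in the NC samples. These values correspond to an estimated 27.6, 37.2 and 21.7 fragments and 10.2, 11 and 13.5 fragments. The OV-BRCA1 samples were all above the NC samples, on few fragments in each. The log2 fold change was 0.39 (SE 0.09, 95% interval 0.17 to 0.62, limma adjusted p = 0.0188), and the ratio of the mean FPKM, 2.81, is the larger because of the added 1 in the logarithm. The call was near the threshold. The limma adjusted p-value was 0.0514 without NC sample 1, 0.0601 without NC sample 2, 0.0533 without NC sample 3 and 0.0509 without OV-BRCA1 sample 2, and 0.0608 with the replicate number as a block, at log2 fold changes of 0.40, 0.38, 0.40, 0.34 and 0.39. It passed in 8 of 13 alternatives, in a range of 0.0134 to 0.0608. DLL1 also overlaps FAM120B on the opposite strand (4.62 and 5.04 FPKM), and the use of strand is not given in the sources used here, so fragments of these genes may not have been told apart.

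JAG2 (ENSG00000184916, chr14:105140981-105168824, GRCh38), the other Jagged ligand, was the most abundant ligand per length. Its FPKM was 11.2, 8.66 and 12.3 in the OV-BRCA1 samples and 6.48, 9.56 and 11.6 in the NC samples. The groups overlapped widely, and the log2 fold change of 0.22 did not pass (SE 0.21, 95% interval -0.30 to 0.74, limma adjusted p = 0.472). A retained-intron transcript, ENST00000546616, was at 6.03, 0 and 4.26 FPKM in the OV-BRCA1 samples and at 0.0701, 4.73 and 0.092 in the NC samples. Samples of both groups thus either had several FPKM of this transcript or nearly none. In protein-coding transcripts alone JAG2 was at 5.73 ± 2.52 FPKM in OV-BRCA1 cells and 6.74 ± 3.39 in NC cells (SD, n = 3), and its log2 fold change turned to -0.19. With the most abundant transcript in place of the sum it was -0.51, so JAG2 has no stated direction. Summed over JAG1, JAG2 and DLL1, FPKM was 15.5 ± 2.14 in OV-BRCA1 cells and 11.2 ± 2.62 in NC cells, and most of both sums came from JAG2.

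**Figure D2:**
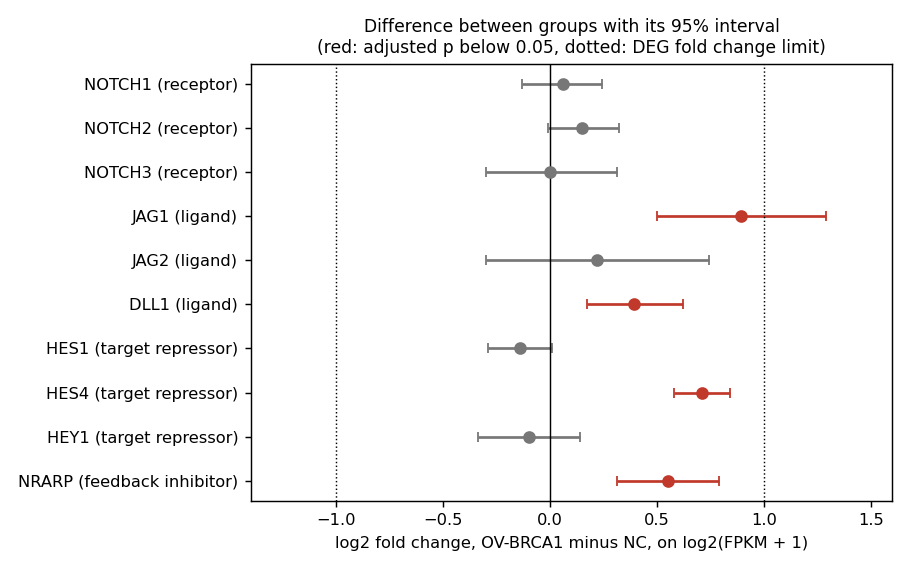
Log2 fold change of each member (x axis, OV-BRCA1 minus NC, on log2(FPKM + 1)) with its 95% interval, red where the adjusted p-value was below 0.05, with dotted lines at the fold change limit of a DEG. JAG1 (0.89), HES4 (0.71), NRARP (0.55) and DLL1 (0.39) stand to the right of 0, and the intervals of the other members include 0.

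The HES proteins are basic helix-loop-helix repressors. The upstream sequences of HES1, HES4 and NRARP are shown as a description, since Notch is known to induce these genes. The 250 bases before the RefSeq start of each gene (GRCh38.p14) were taken, but among the 10 members no sequence was taken for DLL1 and HEY1. RefSeq and GENCODE 29 starts differ, so 75 bases of the HES4 window, 48 of the JAG2 window and 3 of the HES1 window lie inside the gene as GENCODE 29 places it. HES1 is shown from chr3:194135898-194136147 on the + strand, HES4 from chr1:1000098-1000347 on the - strand and NRARP from chr9:137302272-137302521 on the - strand. Each is written 5′ to 3′ on the strand of the gene, with capitals marking TGGGAA, the core bound by RBPJ.
HES1: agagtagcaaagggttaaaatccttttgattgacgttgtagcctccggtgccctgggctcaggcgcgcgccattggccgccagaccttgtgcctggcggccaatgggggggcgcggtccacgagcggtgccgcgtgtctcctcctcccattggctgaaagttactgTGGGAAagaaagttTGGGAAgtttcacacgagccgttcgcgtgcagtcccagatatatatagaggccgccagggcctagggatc
HES4: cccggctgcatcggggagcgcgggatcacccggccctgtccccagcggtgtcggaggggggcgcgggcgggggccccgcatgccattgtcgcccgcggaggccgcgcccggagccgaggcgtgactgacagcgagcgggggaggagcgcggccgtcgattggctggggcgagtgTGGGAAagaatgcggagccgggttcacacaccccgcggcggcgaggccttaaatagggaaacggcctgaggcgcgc
NRARP: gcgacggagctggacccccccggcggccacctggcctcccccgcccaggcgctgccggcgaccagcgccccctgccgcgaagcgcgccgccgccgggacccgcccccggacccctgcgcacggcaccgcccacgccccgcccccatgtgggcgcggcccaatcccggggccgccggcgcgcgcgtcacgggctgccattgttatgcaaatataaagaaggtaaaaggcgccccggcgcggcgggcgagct

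TGGGAA was searched on both strands, and 20.8% of 35116 RefSeq promoters of this length hold at least 1 match and 2.9% hold 2 or more. HES1 has 2 matches, at 84 to 79 and at 70 to 65 bases before its start, and HES4 has 1 match at 76 to 71 bases, which falls on its GENCODE start. NRARP, JAG1, JAG2 and the 3 receptors have no match in this window. The N-box CACNAG, a motif bound by HES proteins, occurs 3 times upstream of HES1 and 1 time upstream of NOTCH3, where 32% of all promoters hold at least 1 match and 6.32% hold 2 or more, and the E-box CACGTG occurs in none of the 8 members and in 6.34% of promoters. A match is a description of the letters and not of binding. HES4 with 1 core and NRARP with none were higher in the OV-BRCA1 group, and HES1 with 2 cores did not pass. Whether the matches bear on these values was not tested.

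HES4 (ENSG00000188290, chr1:998962-1000172, GRCh38) was the most abundant of the 10 members per length and had the smallest adjusted p-value. Its FPKM was 85.3, 78.3 and 77.6 in the OV-BRCA1 samples and 49.0, 49.4 and 47.7 in the NC samples. The gap between the groups was several times the spread within either of them. The means were 80.4 ± 4.29 and 48.7 ± 0.883 (SD, n = 3 each), and the log2 fold change was 0.71 (SE 0.05, 95% interval 0.58 to 0.84, limma adjusted p = 0.000262). Each of its 4 transcripts had a higher mean in the OV-BRCA1 group, with ratios between 1.44 and 1.70. The log2 fold change passed in all 14 alternative settings, between 0.66 and 0.75.

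HES4 lies 966 bases from ISG15, a ubiquitin-like gene induced by interferon, which is transcribed from the opposite strand. ISG15, examined after its values were seen, was at 2336, 2114 and 2243 FPKM in the OV-BRCA1 samples and at 418, 420 and 438 in the NC samples. It was a DEG with a log2 fold change of 2.39 (SE 0.05, limma adjusted p = 2.68e-06), a larger difference than that of HES4. Whether the difference in HES4 is tied to that of its neighbor was not tested.

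HES1 (ENSG00000114315, chr3:194136145-194138732, GRCh38), the classical Notch target, did not share the direction of HES4. Its FPKM was 26.5, 26.4 and 27.0 in the OV-BRCA1 samples and 30.6, 30.6 and 27.3 in the NC samples. The OV-BRCA1 samples lay below all NC samples, but NC sample 3 lay close to them. The log2 fold change was -0.14 (SE 0.06, 95% interval -0.29 to 0.01), and it did not pass (limma adjusted p = 0.122). The upper bound of the interval lay at a log2 fold change of 0.01. The difference kept a negative sign in all 14 alternative settings, between -0.19 and -0.11, without passing in any. HES4 exceeded HES1 in FPKM in every sample, and whether their changes differ from each other was not tested.

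HEY1 (ENSG00000164683), of the related HEY repressors, was near the detection limit. Its FPKM was 0.438, 0.536 and 0.408 in the OV-BRCA1 samples and 0.448, 0.546 and 0.710 in the NC samples. The groups overlapped, with an estimated 12.2 to 17.6 fragments per OV-BRCA1 sample and 16 to 28 per NC sample, and the log2 fold change of -0.10 did not pass (95% interval -0.34 to 0.14, limma adjusted p = 0.481). The files divided HEY1 differently between coding transcripts in the groups, except that NC sample 3 held both. ENST00000337919 was listed at 0 in all OV-BRCA1 samples and at 0.448, 0.442 and 0.324 FPKM in the NC samples. ENST00000354724 was at 0.322, 0.451 and 0.384 FPKM in the OV-BRCA1 samples and at 0, 0 and 0.282 in the NC samples. These transcripts are 2296 and 2293 bases long, and how the fragments were divided between them is not given in the sources used here. This division between transcripts was not tested.

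NRARP (ENSG00000198435, chr9:137300482-137302251, GRCh38) encodes a small ankyrin-repeat protein that is induced by Notch and limits the activity of the Notch intracellular domain. Its single transcript had an FPKM of 5.25, 4.32 and 5.08 in the OV-BRCA1 samples and of 2.73, 3.04 and 3.25 in the NC samples. The groups did not overlap, and their distance exceeded the spread within both. The means were 4.88 ± 0.495 and 3.01 ± 0.266 (SD, n = 3 each), and the log2 fold change was 0.55 (SE 0.10, 95% interval 0.31 to 0.79, limma adjusted p = 0.00725). It passed in all 14 alternative settings, between 0.50 and 0.68.

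**Figure D3:**
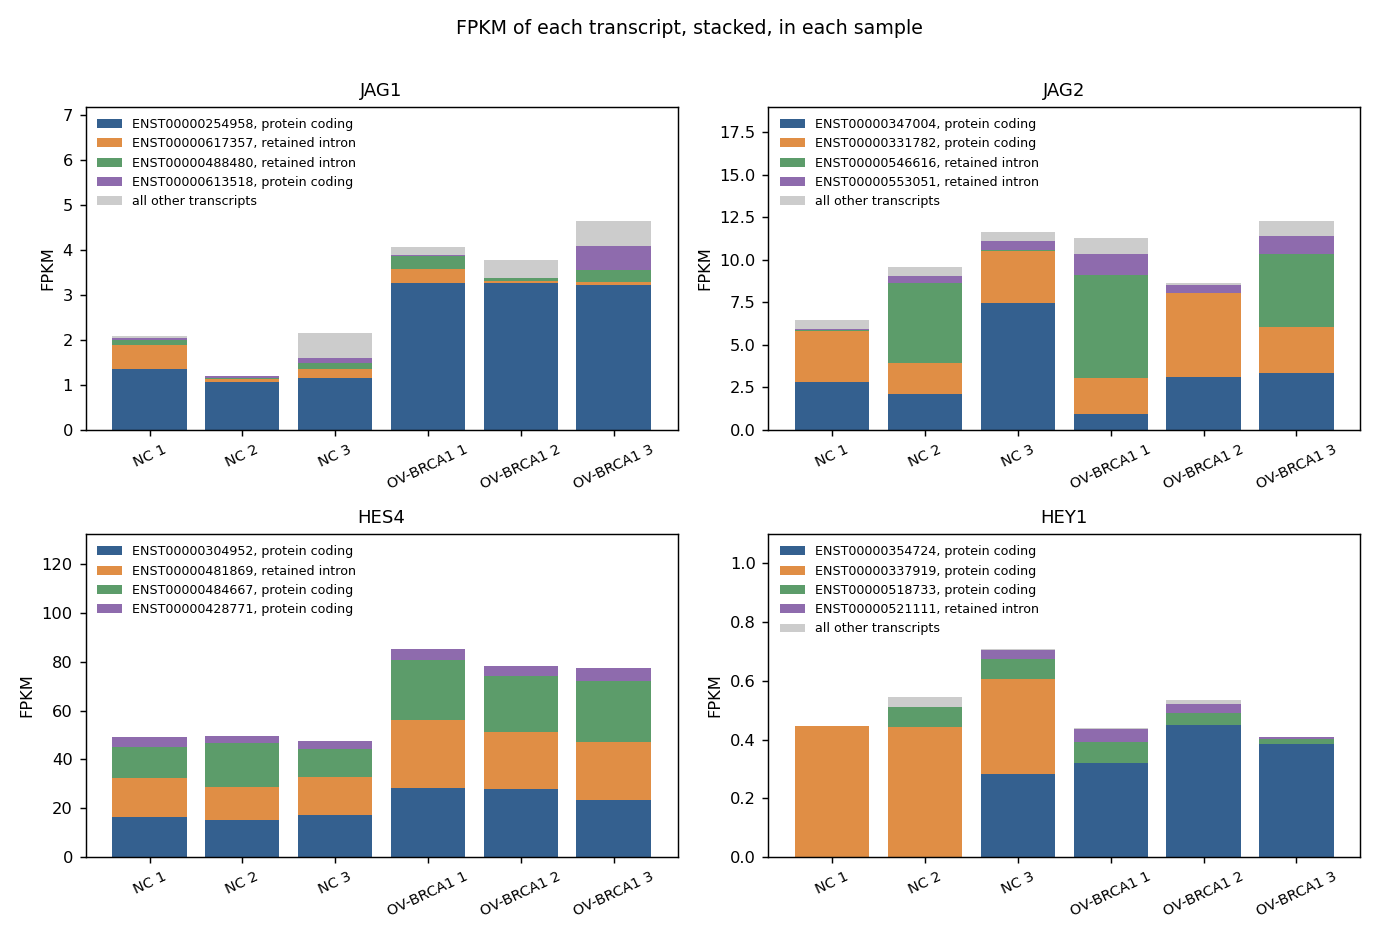
FPKM of the transcripts of JAG1, JAG2, HES4 and HEY1 (y axis, from 0), stacked in a bar for each sample, with transcripts beyond the 4 most abundant in grey. The full-length JAG1 transcript is near 3.25 FPKM in the OV-BRCA1 samples and near 1.19 in the NC samples, all HES4 transcripts are higher in the OV-BRCA1 samples, the retained-intron transcript of JAG2 comes and goes within groups, and HEY1 is assigned to ENST00000337919 only in the NC samples and to ENST00000354724 in the OV-BRCA1 samples and NC sample 3.

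The genes whose pattern over the 6 samples was most like that of JAG1 were TBC1D30, KRTAP21-2 and ADAMTS7P4, with a root mean square difference of 0.098, 0.102 and 0.106 in log2(FPKM + 1) relative to the NC mean, among 14018 genes with a mean FPKM of at least 1. Each of them had its lowest value in NC sample 2, as JAG1 had. They were picked for likeness to JAG1 over these same samples, so this is no separate finding. TBC1D30 was at 3.20, 2.69 and 4.10 FPKM in the OV-BRCA1 samples and at 1.62, 1.06 and 1.64 in the NC samples. Nearest to HES4 were CHPF, ATF6 and LRRC59, with differences of 0.024, 0.024 and 0.029. Of the 14018 genes, 160 lay within 0.1 of HES4 and 1 lay within 0.1 of JAG1. The measure includes the spread between samples of a group, so these counts do not tell how common either group difference was.

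Other genes of the pathway were taken from lists of its parts, 83 genes of which 67 were tested. Of these, 15 genes were higher with BRCA1 and 15 genes lower, to be read against the 16.4% and 18.9% of all genes tested, and 37 did not pass. Their median log2 fold change was 0.09. Upregulated DEGs were HES7 and CCND1, and the downregulated DEG was TLE2. NOTCH4, the remaining receptor, was not tested because of its low FPKM (at most 0.675). Of 7 further ligands 4 were tested, and only DLL4 passed. DLL4, a Delta-like ligand best known from blood vessel sprouting, was at 1.34, 1.35 and 1.46 FPKM in the OV-BRCA1 samples and at 0.177, 0.301 and 0.233 in the NC samples. Its groups lay far apart, with a log2 fold change of 0.95 (SE 0.09, limma adjusted p = 0.000523), and like DLL1 it entered the test only through the OV-BRCA1 samples. With a pseudocount of 0.1 in place of 1 its log2 fold change was 2.15.

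The enzymes that act on ligands and receptors moved in both directions, and the counts of each list are to be read against the 16.4% higher and 18.9% lower of all genes tested. Of 6 genes for ligand ubiquitination and endocytosis, 3 were lower and 1 was higher, and the lower ones were EPN1, an endocytic adaptor, and the ubiquitin ligases NEURL1B and MIB2. EPN1 fell from 53.3 ± 1.85 to 34.0 ± 0.524 FPKM and NEURL1B from 1.73 ± 0.0353 to 0.479 ± 0.153 (SD, n = 3). MIB2 fell by 0.29 on the log2 scale (limma adjusted p = 0.0105), a call lost with the most abundant transcript in place of the sum or with protein-coding transcripts only, where the log2 fold change was larger, -0.65 and -0.61, with an SE of 0.50 and 0.44 (adjusted p = 0.42 and 0.348, in a range of 0.00858 to 0.42). Of 8 tested glycosyltransferases 4 were higher and 2 lower. LFNG, the Fringe enzyme that extends O-fucose on Notch and tunes the response to Delta-like against Jagged ligands, was at 2.43, 2.31 and 2.38 FPKM in the OV-BRCA1 samples and at 5.96, 5.11 and 4.94 in the NC samples. The OV-BRCA1 mean was 0.445 of the NC mean, and the groups did not overlap (log2 fold change -0.91, SE 0.09, limma adjusted p = 0.000738). The most abundant LFNG transcript alone gave 0.40 and did not pass (adjusted p = 0.521, in a range of 0.000641 to 0.521). POFUT1, which adds the O-fucose, and the xylosyltransferase XXYLT1 rose by log2 fold changes of 0.38 and 0.37.

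None of the 3 proteases that process the receptor outside gamma-secretase passed. Of 6 gamma-secretase subunits, PSENEN fell from 29.1 ± 1.93 to 18.8 ± 0.216 FPKM (SD, n = 3) and NCSTN rose from 55.7 ± 0.542 to 71.2 ± 6.29 (SD, n = 3), while 4 did not pass. Among 7 tested genes of nuclear activation, the acetyltransferase KAT2A was lower with a log2 fold change of -0.64 (limma adjusted p = 0.00737) and the Mastermind gene MAML1 was higher with 0.20 (limma adjusted p = 0.0459). KAT2A turned to 0.10 in protein-coding transcripts only (adjusted p = 0.811, in a range of 0.00576 to 0.811). MAML1 lost its call without any one of the 6 samples, at log2 fold changes of 0.17 to 0.23, with limma adjusted p-values of 0.119, 0.107 and 0.0625 without OV-BRCA1 samples 2, 3 and 1 and of 0.126, 0.099 and 0.0699 without NC samples 1, 2 and 3. With all samples it also lost the call in 5 alternatives, at log2 fold changes of 0.17 to 0.20 (adjusted p = 0.0513 to 0.0944), and it passed in 3 of 14. RBPJ itself was at 8.49, 8.71 and 5.77 FPKM in the OV-BRCA1 samples and at 6.21, 7.13 and 5.44 in the NC samples, overlapping between the groups (limma adjusted p = 0.302).

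Of 14 tested corepressors 6 were lower and 3 higher, where 18.9% and 16.4% of all genes tested were. HDAC1, a histone deacetylase, fell from 80.7 ± 2.98 to 47.1 ± 1.13 FPKM (SD, n = 3), a fall larger than the spread within groups (limma adjusted p = 0.000134). The HDAC1 call was lost with the most abundant transcript and with protein-coding transcripts only, at log2 fold changes of -0.25 and -0.24 against -0.77 for the sum (adjusted p = 0.772 and 0.748, in a range of 0.000127 to 0.772). CIR1, an RBPJ-binding corepressor, rose by a log2 fold change of 0.41, and TLE2, a Groucho-type corepressor, was a downregulated DEG with 6.15, 4.16 and 3.43 FPKM in the OV-BRCA1 samples and 10.3, 8.67 and 12.2 in the NC samples. The groups of TLE2 did not overlap (log2 fold change -1.05, SE 0.20, limma adjusted p = 0.00935), but its log2 fold change was -0.90 without OV-BRCA1 sample 3 and -0.94 without NC sample 3, so it passed there without being a DEG. In protein-coding transcripts only it was -0.78, and its most abundant transcript did not pass (adjusted p = 0.731, in a range of 0.00181 to 0.731). Among 11 tested negative regulators, the Deltex gene DTX3 was lower (log2 fold change -0.76) and the kinase CDK8 was higher (0.49), the latter at 0.41 and 0.46 without passing with the most abundant transcript and with protein-coding transcripts only (limma adjusted p = 0.424 and 0.229, in a range of 0.0101 to 0.424).

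Only 2 of 8 further HES and HEY genes were tested, of which 1 was higher and 1 was lower. HES7, known as an oscillating repressor of the segmentation clock, was at 3.81, 5.37 and 5.79 FPKM in the OV-BRCA1 samples and at 0.937, 1.38 and 0.996 in the NC samples. It was a DEG, with all OV-BRCA1 samples far above the NC samples (log2 fold change 1.5, SE 0.16, limma adjusted p = 0.000995). HES6, a family member that opposes HES1, was at 7.78, 6.34 and 8.25 FPKM in the OV-BRCA1 samples and at 10.8, 11 and 11.1 in the NC samples. It was lower without overlap (log2 fold change -0.51, limma adjusted p = 0.0101), although its most abundant transcript gave 0.40 and did not pass (adjusted p = 0.654, in a range of 0.00612 to 0.654). Outside the family, 2 of 6 tested targets passed, CCND1 with a log2 fold change of 1.70 and CDKN1A with 0.19. CDKN1A lost its call without OV-BRCA1 samples 1 and 2 (limma adjusted p = 0.0536 and 0.0598) and without NC samples 1 and 2 (0.0624 and 0.0539), at log2 fold changes of 0.17 to 0.20. It also lost it with the replicate number as a block (0.0619) and with the most abundant transcript (log2 fold change 0.11, adjusted p = 0.912), and passed in 8 of 14 alternatives, in a range of 0.0108 to 0.912.

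**Figure D4:**
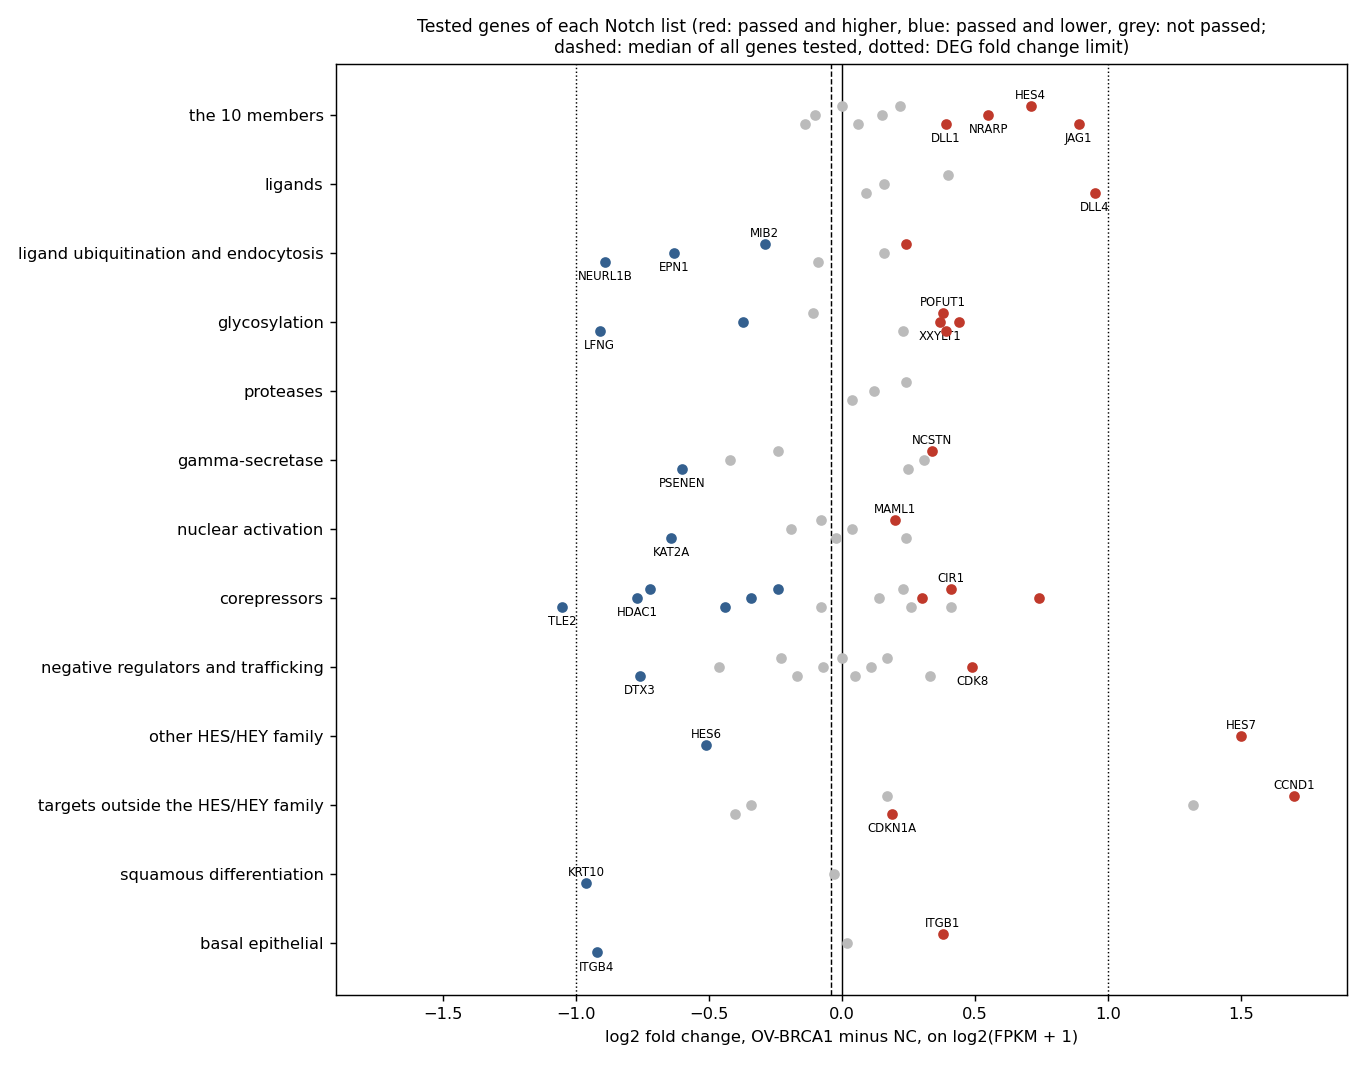
Log2 fold change (x axis, OV-BRCA1 minus NC, on log2(FPKM + 1)) of the tested genes of each list (rows), red where higher and passing, blue where lower and passing and grey where not passing, with named genes labelled. The dashed line is the median of all genes tested, -0.04, and the dotted lines are the fold change limit of a DEG, which HES7 and CCND1 pass on the right and TLE2 on the left.

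Genes of squamous differentiation, to which Notch activity is tied in the normal epithelium, were mostly silent. Of 10, only KRT10 and TGM1 were tested, and IVL, KRT1, KRT13, KRT4, SPRR1A, SPRR1B, FLG and LOR were at or near 0. KRT10, a keratin of suprabasal cells, fell from 20.9 ± 5.29 to 10.0 ± 0.313 FPKM (SD, n = 3, limma adjusted p = 0.00898), a call lost with the most abundant transcript (log2 fold change -0.20 against -0.96, adjusted p = 0.383, in a range of 0.000685 to 0.383). Of 6 basal genes 3 were tested, and the integrin ITGB4 fell from 4.74 ± 0.666 to 2.05 ± 0.519 FPKM while ITGB1 rose from 145 ± 16.8 to 188 ± 19.7 (SD, n = 3). With the most abundant transcript ITGB4 turned to 0.41 and did not pass (limma adjusted p = 0.446, in a range of 0.00406 to 0.446). ITGB1 (limma adjusted p = 0.0382) did not pass without OV-BRCA1 samples 1 or 3 (0.105 and 0.108) or NC samples 1 or 2 (0.105 and 0.106), nor without a filter (0.0933), with protein-coding transcripts only (0.0609) or with the most abundant transcript (0.219). The log2 fold change was 0.32 to 0.38 in these settings against 0.38, and it passed in 7 of 14 alternatives, in a range of 0.0222 to 0.219.

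Some markers differed between the groups. Of the abundant keratins, KRT18 was higher (log2 fold change 0.39, limma adjusted p = 0.000976) and KRT17 lower (-0.48, adjusted p = 0.00263) in the OV-BRCA1 group, and both passed in all 14 alternatives. KRT8 (0.20, adjusted p = 0.0282) passed in 7 of 14, and not without OV-BRCA1 samples 1 or 2 (0.0767 and 0.0774) or NC samples 1 or 2 (0.0804 and 0.085), without a filter (0.0701), with nuclear protein-coding scaling (0.0554) or with the replicate number as a block (0.0813), at log2 fold changes of 0.16 to 0.20. The study's supplement lists both KRT17 and KRT8 as downregulated, for KRT8 the opposite of the direction here. Of the 4 blood cell markers 1 was above 1 FPKM, the lysosomal gene CD68, which was at 22.2, 27.3 and 29.4 FPKM in the OV-BRCA1 samples and at 3.38, 4.17 and 2.74 in the NC samples. The list summed to 22.2, 27.5 and 29.5 FPKM and to 3.57, 4.35 and 2.97 FPKM in these samples, while PTPRC, the defining gene of blood cells, was listed at 0 throughout and CD3E did not exceed 0.233. Of 5 fibroblast markers COL1A1 was the most abundant and fell from 6.39 ± 0.379 to 3.28 ± 0.27 FPKM (SD, n = 3), while LUM was listed at 0 and DCN at 0 in all samples but NC sample 3 (0.0155). That list summed to 3.24, 3.18 and 3.71 FPKM in the OV-BRCA1 samples and to 6.74, 6.66 and 6.06 in the NC samples. The endothelial markers summed to at most 1.48 FPKM in any sample, with VWF at 0. The neural markers summed to 46.1 to 62.2 FPKM per sample, nearly all of it TUBB3 (53.5 FPKM in OV-BRCA1 and 50.5 in NC cells). TUBB3 overlapped between the groups and did not pass (limma adjusted p = 0.632). EPCAM, an epithelial marker, was an upregulated DEG, from 2.59 ± 0.457 to 6.79 ± 0.86 FPKM (SD, n = 3). The part of these differences in the values of JAG1, DLL1, HES4 and NRARP was not tested.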

How the data were processed

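The samples were grouped by the transfection in their labels. The authors aligned reads to hg38 with HISAT2 after FastQC, per the submitters' processing notes, and deposited FPKM for 199167 transcripts in a table for each sample and a table of the series with the same values. The quantifier, annotation and use of strand are not given in the sources used here. The authors tested counts with DESeq, while these files hold FPKM, so limma was used.

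FPKM were summed per gene under GENCODE 29 names, which held 198868 of the transcripts, 98.7% of them at the same position, and 338 genes kept their identifier. Genes that reached 0.5 FPKM in 3 or more samples were compared on log2(FPKM + 1) with limma (trend, no covariate) and Benjamini-Hochberg adjustment over all of them. Depth was estimated from the value of 1 fragment in 14216 genes whose only transcript has 600 to 5000 bases. Of the low values, 32.9% to 38.1% lay within 0.1 of a whole fragment, so whole reads were not recovered and the fragment numbers are estimates that cover counting error only.

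The members and lists were chosen with earlier results of these data known. Named were the members, BRCA1, GAPDH, every DEG of the other lists, in each list up to 3 passing genes with small adjusted p-values, and the 3 genes nearest in pattern to JAG1 and HES4, the members with the largest log2 fold changes. Not every gene that meets these rules is named. Genes of the marker lists and RBPJ were also named, and ISG15 and NOTCH2NLA were named after their values were seen. GAPDH stood at 2896 ± 95.1 FPKM in OV-BRCA1 cells and 2832 ± 72.0 in NC cells (SD, n = 3). Upstream sequences came from RefSeq (GRCh38.p14). Alternatives were a pseudocount of 0.1, no filter, a mean FPKM of at least 1, a replicate block, each sample left out, the most abundant transcript, both scalings and, added after seeing the data, protein-coding transcripts only. Tests ran in limma 3.58.1 (R 4.3.3). Tables were made with pandas 2.3.3 and numpy 2.4.6, and figures with matplotlib 3.10.9 (Python 3.11.15).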

Additional observations from a re-analysis of the deposited data

How the results depend on the processing

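JAG1, HES4 and NRARP passed with the same sign in all 14 alternatives, and NOTCH1, NOTCH2 and HES1 passed in none. DLL1 passed in 8 of the 13 alternatives that tested it, with a log2 fold change of 0.34 to 1.14. With the most abundant transcript in place of the sum, 3291 genes passed against 5764, with protein-coding transcripts only, chosen after seeing the data, 3694 passed, and with a pseudocount of 0.1 there were 1280 DEGs against 651. Leaving out 1 sample gave 4415 to 4765 passing genes and 646 to 701 DEGs, with 3 to 4 members higher and 0 lower.

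Signs turned as follows, none with a passing value, and the cause was not tested. With the most abundant transcript, NOTCH3 was at -0.04, JAG2 at -0.51, LFNG at 0.40, HES6 at 0.40, ITGB4 at 0.41 and RBPJ at -0.55. With protein-coding transcripts only, NOTCH3 was at -0.09, JAG2 at -0.19, KAT2A at 0.10, RBPJ at -0.01 and GAPDH at -0.16. With nuclear protein-coding scaling, NOTCH3 was at -0.02 and GAPDH at -0.01. Leaving out 1 sample moved NOTCH3 between -0.08 and 0.09.

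Samples with the same replicate number did not deviate together, with correlations across genes of -0.024, 0.025 and 0.014, and not every sample was closest to its own number. With the replicate number as a block 4595 genes passed, and DLL1 had an adjusted p of 0.0608 at the same log2 fold change of 0.39. DLL1 and HEY1 rest on 10.2 to 37.2 estimated fragments per sample, so depth limits them most among the members.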

Other observations

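Some pathway genes were divided over their transcripts differently in the groups, as HEY1 was. The LFNG transcript ENST00000614382 was at 0.24, 0.0495 and 0.238 FPKM in the OV-BRCA1 samples and at 4, 1.39 and 2.03 in the NC samples, whereas ENST00000222725, the most abundant LFNG transcript, was at 2.11, 2.20 and 1.76 and at 1.57, 0.303 and 2.59. The first transcript separated the groups and the other overlapped. For HES6, ENST00000409002 was listed at 0 in all OV-BRCA1 samples and at 7.14, 0 and 5.64 FPKM in the NC samples. ENST00000409160 of HES6 was at 4.97, 3.55 and 7.15 FPKM in the OV-BRCA1 samples and at 1.54, 8.81 and 2.84 in the NC samples, with its highest value in the NC sample that lacked the other transcript. The division between transcripts was not tested.

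Other genes of the lists, chosen after their values were seen, split the samples within groups. EOGT, a glycosyltransferase that modifies Notch receptors, was at 5.99, 12.3 and 14.7 FPKM in the OV-BRCA1 samples and at 3.52, 14.4 and 12.0 in the NC samples, with sample 1 the lowest of each group. The integrin gene ITGA6 was at 24.4, 13.0 and 11.1 FPKM in the OV-BRCA1 samples and at 12.5, 10.0 and 26.9 in the NC samples, with 1 high sample in each group. Neither gene differed between the groups beyond this spread (limma adjusted p = 0.761 for EOGT and 0.977 for ITGA6).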
